A study of Homo sapiens with 24 samples.

Results

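Most of the genes described here encode core proteins of the splicing machinery or its main RNA-binding regulators. The genes were taken as every gene symbol that starts with SNRP, SF3A, SF3B, LSM, PRPF, U2AF, SRSF or HNRNP. This rule also takes LSM genes with other roles, such as LSM1, LSM10 and LSM14A, which stay in the snRNP group below. It gave 87 of the 23106 symbols counted. Of these, 49 formed the snRNP group (Sm and U1- or U2-specific proteins, 12; LSM proteins, 12; SF3A and SF3B subunits, 9; PRPF factors, 13; U2AF proteins, 3), 12 the SRSF group and 20 the HNRNP group. The 6 others were kept out of every group count: the pseudogenes HNRNPA1P10, HNRNPA1P33, HNRNPA3P1, HNRNPKP3 and SNRPD2P2, and LSMD1, an older symbol for NAA38, a subunit of an N-terminal acetyltransferase.

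RNA-seq was performed on 4 human cancer cell lines, A549 (lung), HCT-116 (colorectal), PC3 (prostate) and T47D (breast), kept in 21% oxygen (normoxia) or in 0.5% oxygen for 16 h (hypoxia). Each of the 8 groups had 3 libraries. A549 and PC3 cells grew in F12K medium, HCT-116 cells in McCoy's 5a medium and T47D cells in DMEM, so that cell line and medium cannot be told apart in part of the comparisons between lines. The comparison of hypoxia with normoxia within each line asks how low oxygen changes the transcriptome of that line. Nothing in the labels says that the replicates were separate cultures, and p values then measure only the spread between these libraries.

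The spliceosome removes introns from newly made RNA. Its building blocks are small nuclear ribonucleoproteins (snRNPs), in which a ring of Sm proteins, or of the related LSM proteins on U6, holds a small nuclear RNA, and to which particle-specific proteins such as the SF3 and PRPF factors bind. U2AF reads the end of the intron and brings in the U2 particle. SR proteins (SRSF genes) bind mainly exonic sequences and favor splicing at nearby sites, while many hnRNP proteins (HNRNP genes) coat nascent RNA and often act against nearby splice sites. The mRNAs of SR proteins are themselves known to be spliced into forms that are degraded.

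Library totals ranged from 22698584 to 62850747 counts. Levels are given as CPM (counts relative to the library's total, with TMM factors from the line's own fit), and a gene was called up- or downregulated with an adjusted p under 0.05 (edgeR quasi-likelihood test over all genes tested) and a fold change over 1.2. CA9, NDRG1, EGLN3 and ADM, which are known targets of the hypoxia response, were higher in every hypoxic library than in each normoxic library of the same line, and CA9 in A549 cells was at 0.102 to 0.520 CPM in normoxia and at 99.3 to 123 CPM in hypoxia. Keratins KRT8 and KRT18 were present in every library, from 337 CPM upward, and EPCAM at 142 CPM or more except in A549 cells (2.30 to 5.29 CPM). Of the markers of origin, GATA3, ESR1 and PGR were present in T47D cells, HOXB13 in PC3 cells (75.1 to 127 CPM) and CDX2 in HCT-116 cells (10.5 to 21.4 CPM), whereas the lung markers NKX2-1, SFTPB and SFTPC in A549 cells, CDX1, VIL1 and CDH17 in HCT-116 cells and KLK3 in PC3 cells were at or near 0. The blood and endothelial markers PTPRC, CD3E, PECAM1 and VWF did not exceed 2.82 CPM in any library, nor did COL1A2 exceed 0.444 CPM, while COL1A1 was at 9.43 to 62.1 CPM. Replicate 3 of both T47D groups stood apart: hypoxia replicate 3 had the lowest mean correlation with its own group of all libraries (r = 0.965, over genes), and normoxia replicate 3 correlated nearly as well with the hypoxic libraries of its line (0.961) as with its own group (0.971). In HCT-116 cells, normoxia replicate 2 was the library least like the opposite oxygen state (r = 0.853).

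Promoter sequences are shown for 4 genes on which the results turn, the most upregulated hnRNP gene, the most upregulated PRPF gene, the only SR gene downregulated in 4 lines and an LSM gene downregulated in 4 lines. Each runs 5′ to 3′ along the gene's strand, over the 250 bases before the most upstream RefSeq start in build GRCh38.p14, and all 4 genes lie on the minus strand. Capitals mark ACGTG or GCGTG, the core letters of the hypoxia response element, on either strand, so that CACGC and CACGT are the reverse reading.
HNRNPUL2, chr11:62727458-62727707: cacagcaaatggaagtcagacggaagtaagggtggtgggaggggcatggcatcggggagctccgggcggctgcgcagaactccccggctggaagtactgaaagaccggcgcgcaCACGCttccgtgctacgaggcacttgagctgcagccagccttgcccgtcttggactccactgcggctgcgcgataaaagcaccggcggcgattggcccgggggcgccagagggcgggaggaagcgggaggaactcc
PRPF8, chr17:1684868-1685117: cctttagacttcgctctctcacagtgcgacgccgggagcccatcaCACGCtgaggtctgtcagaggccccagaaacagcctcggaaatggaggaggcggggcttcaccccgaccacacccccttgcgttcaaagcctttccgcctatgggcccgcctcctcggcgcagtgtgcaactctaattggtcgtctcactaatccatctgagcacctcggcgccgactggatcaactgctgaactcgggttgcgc
SRSF7, chr2:38751495-38751744: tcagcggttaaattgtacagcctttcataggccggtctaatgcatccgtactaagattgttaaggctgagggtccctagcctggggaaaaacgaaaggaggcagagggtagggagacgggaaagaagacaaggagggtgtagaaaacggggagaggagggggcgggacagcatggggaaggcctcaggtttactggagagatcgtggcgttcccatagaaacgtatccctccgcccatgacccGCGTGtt
LSM5, chr7:32495284-32495533: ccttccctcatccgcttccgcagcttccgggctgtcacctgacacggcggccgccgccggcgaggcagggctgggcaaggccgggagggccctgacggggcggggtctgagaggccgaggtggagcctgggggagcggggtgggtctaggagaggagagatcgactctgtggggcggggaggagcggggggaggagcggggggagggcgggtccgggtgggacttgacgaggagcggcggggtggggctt
These letters occurred once in the windows of HNRNPUL2, PRPF8 and SRSF7, which were not changed in the same direction, and not in that of LSM5. The letters ACGTG or GCGTG were found in 31 of 40 snRNP promoters, 7 of 11 SRSF promoters and 16 of 19 HNRNP promoters matched by symbol, against 55.3% of the 12008 promoters of genes tested and 43.1% of all 27305 promoters of this length. The longer CACGTG, which holds ACGTG, was found in 5 of 19 HNRNP, 1 of 40 snRNP and 0 of 11 SRSF promoters, and in 8.58% of the promoters of genes tested. Such a match describes the letters and is not evidence of binding.

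Of the 81 grouped genes, 78 had enough counts to be tested in at least 1 line and 77 in all 4 lines. LSM2 (0 counts except 2 in 1 library), SNRPN (at most 5 counts) and HNRNPCL1 (0 counts) were not tested, and SRSF12 was tested in A549 cells only. Counting left out reads without a unique position and reads shared by overlapping genes. Counts at or near 0 therefore do not show that a gene was not expressed. In A549 cells 5 genes were upregulated and 34 downregulated of 78, beside 17.6% up and 17.8% down among all genes tested. In HCT-116 cells 23 were upregulated and 29 downregulated of 77, beside 23.3% up and 27.0% down. In PC3 cells 3 were upregulated and 24 downregulated, beside 16.6% and 15.7%. In T47D cells 1 was upregulated and 8 were downregulated, beside 6.55% and 6.69%. The share of downregulated genes was thus 43.6%, 37.7%, 31.2% and 10.4% in the order given. With replicate number as a block, the T47D counts were 2 up and 12 down, with HNRNPA0 the added upregulated gene (log2 fold change 0.61). The T47D counts depended on single libraries: with normoxia replicate 1 or 2 left out, no gene passed in edgeR (12 and 15 lower and 1 higher in each case at an unadjusted p under 0.05), and with replicate 3 of both states left out, an alternative chosen after the data were seen, 18 were upregulated and 30 downregulated (23.4% and 39.0%, beside 20.4% and 21.98% of all genes tested in the same setting). Without hypoxia replicate 1, 2 or 3 or normoxia replicate 3 alone, the T47D counts were 0 up and 3 down, 1 up and 4 down, 3 up and 21 down, and 7 up and 17 down. In PC3 cells 12, 13 and 15 genes were downregulated without hypoxia replicate 1, 2 or 3 and 1 upregulated in each case, and 6 were upregulated without normoxia replicate 2. In A549 cells 11 were upregulated without normoxia replicate 3, and 3 without hypoxia replicate 2 or normoxia replicate 1 or 2.

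The group medians differed in sign and size. In the order A549, HCT-116, PC3 and T47D, the median log2 fold change of the snRNP genes was -0.38 ± 0.05, -0.41 ± 0.03, -0.27 ± 0.06 and -0.11 ± 0.21, and that of the SRSF genes -0.36 ± 0.10, -0.60 ± 0.31, -0.34 ± 0.03 and -0.53 ± 0.12 (SD over the 3 hypoxic libraries). The median of the HNRNP genes was 0.06 ± 0.06, 0.58 ± 0.09, 0.01 ± 0.002 and 0.23 ± 0.06, beside -0.01, -0.03, -0.01 and -0.01 for all genes tested. These SDs leave out the spread of the normoxic libraries. Around the normoxic mean, the HNRNP medians of single normoxic libraries ran from -0.17 to 0.18 in A549 and -0.28 to 0.21 in HCT-116 cells. They ran from -0.22 to 0.13 in PC3 and -0.18 to 0.34 in T47D cells. Scaled to total counts, which shifted the median of all genes to -0.13 in A549 and -0.12 in T47D cells, the HNRNP median was -0.06 in A549 and -0.03 in PC3 cells. Single libraries moved several of these medians. Without HCT-116 normoxia replicate 2 the snRNP median of that line was -0.24, and in T47D cells it was -0.37 without hypoxia replicate 3 and -0.23 without normoxia replicate 2. The T47D HNRNP median was 0.13 without hypoxia replicate 3, 0.11 without normoxia replicate 2 and 0.46 without normoxia replicate 3. In A549 cells the HNRNP median was -0.0091 without normoxia replicate 2, 0.098 without hypoxia replicate 2 and 0.17 without normoxia replicate 3, and in PC3 cells it lay between -0.090 (without normoxia replicate 3) and 0.063 (without normoxia replicate 2), so that its sign was not fixed in either line. Of the snRNP genes, 26 of 47 fell and 3 rose in A549 cells, 22 fell and 10 rose in HCT-116 cells, 15 fell and 0 rose in PC3 cells and 7 fell and 0 rose in T47D cells. Downregulated SRSF genes numbered 6 of 12, 6 of 11, 6 of 11 and 1 of 11, and upregulated ones 0, 1, 2 and 0. Among the 19 HNRNP genes tested, 2 rose and 2 fell in A549 cells, 12 rose and 1 fell in HCT-116 cells, 1 rose and 3 fell in PC3 cells and 1 rose and 0 fell in T47D cells. The counts of each group stand beside the shares of all genes given in the paragraph before. No test of the difference between groups was made, since the groups were chosen with earlier results known.

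**Figure D1:**
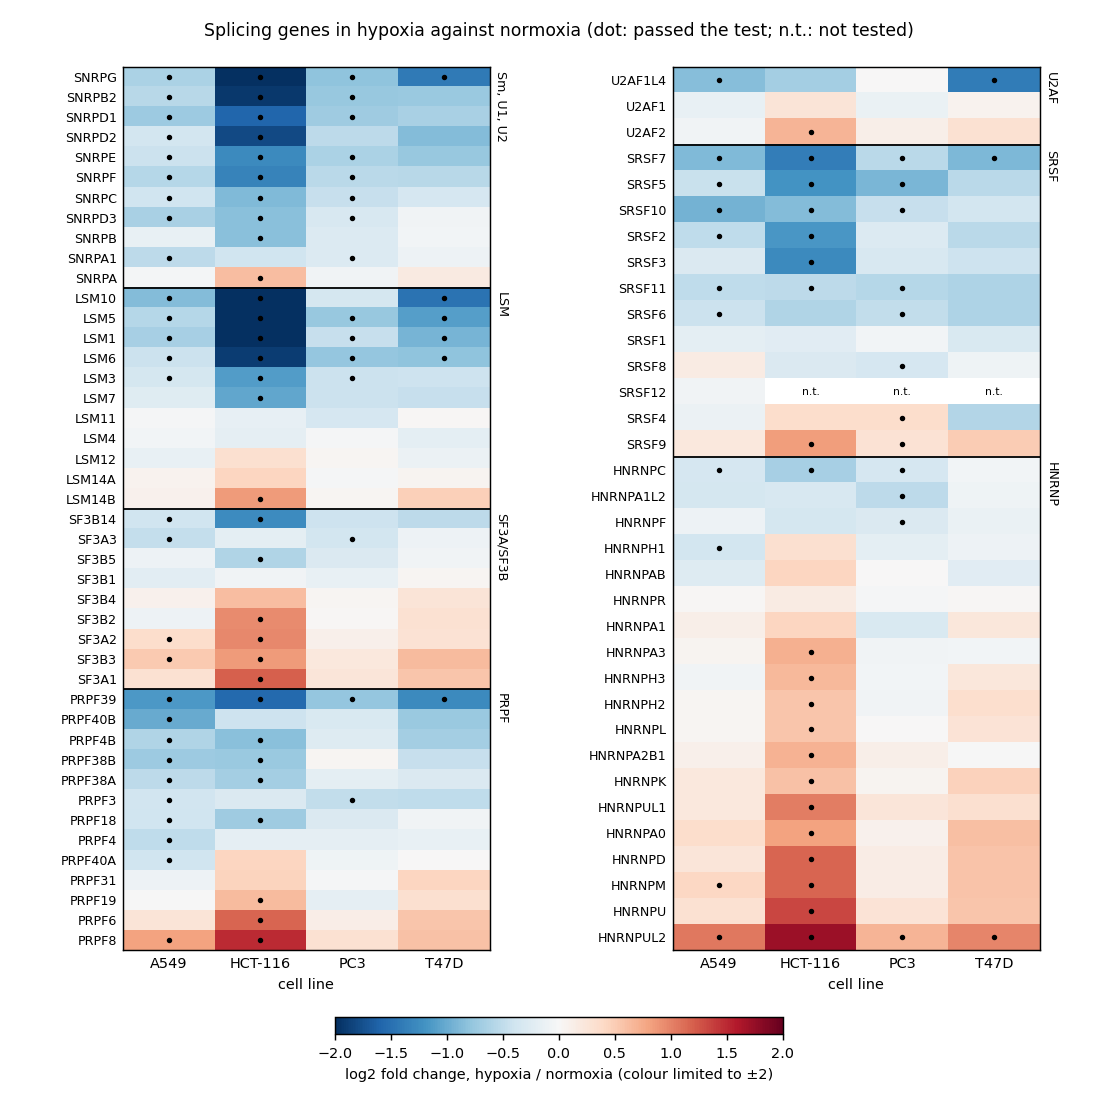
Log2 fold change, hypoxia against normoxia, of the 78 tested genes (rows, by class and ordered by their mean) in the 4 cell lines (columns), with blue for lower and red for higher in hypoxia, a dot for genes that passed the test and n.t. for genes not tested. The Sm, LSM and SRSF blocks are mostly blue with dots in A549, HCT-116 and PC3 cells, and the HNRNP block is red mainly in HCT-116 cells.

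No gene was upregulated in 1 line and downregulated in another without the replicate block. With the block, SRSF4 was upregulated in PC3 and downregulated in T47D cells (log2 fold change -0.58, adjusted p = 0.0392 in edgeR). In all 4 lines HNRNPUL2 was upregulated and 6 genes, SNRPG, LSM1, LSM5, LSM6, PRPF39 and SRSF7, were downregulated, of 77 tested in every line, beside 2.58% up and 3.36% down in all 4 lines among all genes. Downregulation in 3 or 4 lines was found for 18 of 77 grouped genes, beside 10.5% of the 11734 genes tested in every line. By sign alone, 38 genes were lower in all 4 lines (49.4%, beside 31.1% of all genes) and 16 were higher in all 4 (20.8%, beside 27.2%).

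The groups differed in transcript length and base composition. The median length of the longest transcript was 1185 bases for the Sm and U1- or U2-specific genes, 2220 for LSM, 3774 for SRSF and 3367.5 for HNRNP genes, against 3440 for all genes tested. The median GC content was 45.5%, 46.3%, 40.4% and 42.7% in the same order, against 49.0% for all genes tested. With fold changes corrected for GC content and length, downregulated genes numbered 20 in A549, 18 in HCT-116, 13 in PC3 and 4 in T47D cells in place of 34, 29, 24 and 8. These were 25.6%, 23.4%, 16.9% and 5.19% of the genes, beside 16.5%, 20.8%, 12.5% and 6.28% of all genes with the same correction, so that the share in HCT-116 cells was near that of all genes and the share in T47D cells below it. The snRNP medians then became -0.17, -0.07, -0.13 and -0.02, the SRSF medians -0.18, -0.24, -0.22 and -0.35, and the HNRNP medians 0.21, 0.79, 0.09 and 0.34. The part of transcript length and GC content in the measured fold changes was not tested further.

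**Figure D2:**
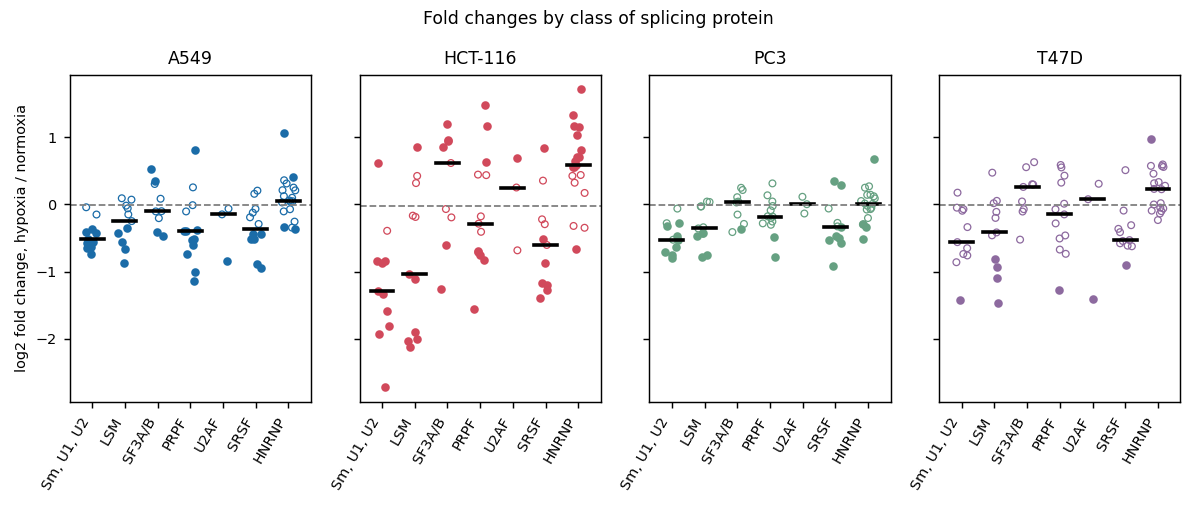
Log2 fold change, hypoxia against normoxia (vertical axis), of each tested gene (points) by class in each cell line; filled points passed the test, open points did not, bars are class medians and the dashed line is the median of all genes tested. The Sm, U1 and U2 class has its median at -1.28 in HCT-116 cells and between -0.56 and -0.52 in the other lines.

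The Sm proteins and the U1- or U2-specific proteins had most of their members downregulated in A549, HCT-116 and PC3 cells. Downregulated members numbered 9 of 11 in A549, 9 of 11 in HCT-116, 8 of 11 in PC3 and 1 of 11 in T47D cells. These counts stand beside 17.8%, 27.0%, 15.7% and 6.69% of all genes tested. Class medians were -0.52, -1.28, -0.53 and -0.56. Corrected for GC content and length, 3, 6, 2 and 0 members of the class were downregulated, the 0 in T47D cells beside 2 lower at an unadjusted p under 0.05. Without replicate 3 of both T47D states, 7 were downregulated there.

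SNRPG (chr2:70508494-70520872 in GRCh37, minus strand) encodes one of the Sm ring proteins and had the lowest mean log2 fold change over the 4 lines in the snRNP group, although several genes in A549 cells, PRPF39 the lowest, and LSM10 in T47D cells had lower values. In A549 cells it was at 122, 107 and 72.1 CPM in normoxia and 67.0, 63.0 and 64.7 CPM in hypoxia (log2 fold change -0.63 ± 0.16, SE, as for every fold change below, n = 3 libraries per group). HCT-116 cells had 312, 654 and 192 CPM in normoxia and 60.6, 59.6 and 55.7 CPM in hypoxia (-2.72 ± 0.36). The hypoxic libraries of both lines lay close together and below each normoxic library, while normoxia ranged widely in HCT-116 cells. PC3 cells had 72.7, 66.6 and 132 CPM in normoxia and 49.6, 48.5 and 57.7 CPM in hypoxia (-0.80 ± 0.22), and T47D cells 129, 121 and 47.03 CPM in normoxia and 41.3, 25.2 and 44.6 CPM in hypoxia (-1.42 ± 0.34). The states did not overlap in any line, although T47D normoxia replicate 3 was close to the hypoxic libraries. Adjusted p values were 0.0104, 0.000145, 0.0229 and 0.019, and the calls in A549, PC3 and T47D cells ended with the GC and length correction. The PC3 call also ended without hypoxia replicate 1 or 2 (adjusted p up to 0.0779), and the T47D call without normoxia replicate 1 or 2 (up to 0.157).

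Of the other Sm ring genes, 4 were downregulated in A549, HCT-116 and PC3 cells. SNRPD1 had log2 fold changes of -0.73, -1.58 and -0.71, SNRPE -0.43, -1.28 and -0.63, SNRPF -0.58, -1.34 and -0.54, and SNRPD3 -0.65, -0.84 and -0.32, each a passed test. SNRPD2 was at 869.6, 1704 and 721 CPM in normoxia and 298, 354 and 287 CPM in hypoxia in HCT-116 cells (-1.81 ± 0.30), with the states far apart. In A549 cells SNRPD2 passed the test (-0.37 ± 0.13, adjusted p = 0.0439) although hypoxia replicate 3 (311 CPM) exceeded normoxia replicate 3 (305 CPM), and leaving out 1 of 4 single libraries ended the call (log2 fold change from -0.49 to -0.29, adjusted p up to 0.181). In PC3 cells SNRPD2 had no call (-0.53 ± 0.22, adjusted p = 0.0957). SNRPB, the ring protein with the highest level, fell in HCT-116 cells (-0.84 ± 0.23) and had no call in A549, PC3 and T47D cells (-0.15, -0.28 and -0.05), and the difference between lines did not pass (interaction adjusted p = 0.225). That call ended without hypoxia replicate 3 (adjusted p = 0.0762).

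The U1 and U2 proteins were split. SNRPC, part of U1, and SNRPB2, part of U2, were downregulated in A549, HCT-116 and PC3 cells (-0.40, -0.88 and -0.47 for SNRPC, -0.56, -1.93 and -0.75 for SNRPB2). SNRPA1, another U2 protein, fell in A549 (-0.52 ± 0.10) and PC3 cells (-0.27 ± 0.09), the latter without a call when the replicate number was a block. SNRPA, the U1 protein that binds a stem-loop of the U1 RNA, was instead upregulated in HCT-116 cells, at 74.9, 76.9 and 89.4 CPM in normoxia and 109, 145 and 116 CPM in hypoxia (0.62 ± 0.19, adjusted p = 0.0175), and it was the only member of the class that rose in any line. The call ended without hypoxia replicate 2 (adjusted p = 0.0947, the highest over the libraries left out). In the other lines its log2 fold change lay between -0.06 and 0.17 without a call.

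**Figure D3:**
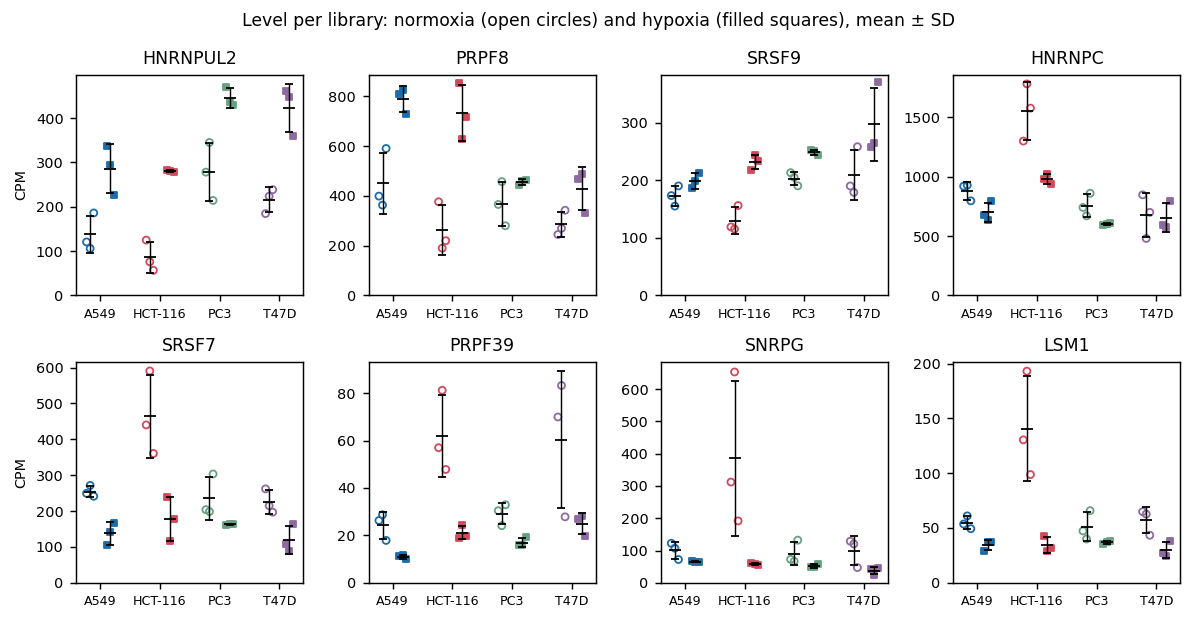
CPM of 8 genes (panels) in each library, by cell line; open circles are normoxia, filled squares hypoxia, and crosses with bars the mean ± SD of 3 libraries. HNRNPUL2 is higher in hypoxia in every line, SRSF7, SNRPG and LSM1 are lower in every line, and the T47D normoxic libraries of PRPF39 are spread from 27.8 to 83.2 CPM.

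LSM proteins form one ring that binds U6 RNA in the nucleus and another, with LSM1, that promotes mRNA decay in the cytoplasm. Of the 11 tested, 5 were downregulated in A549, 6 in HCT-116, 4 in PC3 and 4 in T47D cells, and medians were -0.25, -1.04, -0.36 and -0.42. Downregulated shares of all genes tested were 17.8%, 27.0%, 15.7% and 6.69% in the same order. LSM1 was at 53.6, 61.0 and 49.3 CPM in normoxia and 29.1, 36.9 and 37.4 CPM in hypoxia in A549 cells (-0.67 ± 0.13) and at 130.4, 193 and 98.7 CPM in normoxia and 42.6, 28.9 and 32.2 CPM in hypoxia in HCT-116 cells (-2.02 ± 0.26). PC3 cells had 47.3, 39.9 and 65.8 CPM in normoxia and 35.7, 37.4 and 37.9 CPM in hypoxia (-0.46 ± 0.16) and T47D cells 64.9, 62.7 and 43.4 CPM in normoxia and 27.0, 24.4 and 38.3 CPM in hypoxia (-0.93 ± 0.23). Every hypoxic library of LSM1 was below each normoxic library of its line, although in PC3 cells normoxia replicate 2 and hypoxia replicate 3 were close. The PC3 call ended with the GC and length correction and without any 1 of 5 single libraries (adjusted p up to 0.131).

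LSM5, a subunit of both rings, reached 155, 242 and 94.1 CPM in normoxia and 48.8, 32.4 and 31.2 CPM in hypoxia in HCT-116 cells (-2.13 ± 0.31), with log2 fold changes of -0.56 ± 0.12, -0.76 ± 0.16 and -1.10 ± 0.28 in A549, PC3 and T47D cells. LSM6, also of both rings, had log2 fold changes of -0.42 ± 0.14, -1.90 ± 0.26, -0.78 ± 0.15 and -0.81 ± 0.23 in the order of lines. LSM10 belongs to the U7 particle that processes histone mRNAs, and in T47D cells it was at 29.3, 35.6 and 20.4 CPM in normoxia and 8.04, 7.32 and 15.5 CPM in hypoxia (-1.47 ± 0.30). It also fell in A549 (-0.87 ± 0.16) and HCT-116 cells (-1.999 ± 0.24) and not in PC3 cells (-0.36 ± 0.18, adjusted p = 0.153). In T47D cells each LSM call ended without normoxia replicate 1 or 2, and those of LSM1, LSM5 and LSM6 also without hypoxia replicate 1 or 2 (adjusted p up to 0.0912 for LSM10, 0.154 for LSM1, 0.155 for LSM5 and 0.180 for LSM6). The LSM6 call ended in A549 cells without any 1 of 4 libraries (up to 0.130) and with the GC and length correction. The partner of LSM10, LSM11, had no call in any line. LSM7 fell in HCT-116 cells (-1.04 ± 0.23) and, with the block, in PC3 cells (-0.41), and LSM4, LSM12 and LSM14A, the last a protein of mRNA granules, had no call in any line. LSM14B, related to LSM14A, was the only LSM gene that rose (0.85 ± 0.20, HCT-116). The calls of LSM5 in A549, PC3 and T47D cells, of LSM6 in T47D cells and of LSM7 in HCT-116 cells ended with the GC and length correction, while those of LSM10 in 3 lines and LSM1 in A549, HCT-116 and T47D cells did not.

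SF3A and SF3B form the part of U2 that recognizes the branch point. Of 9 subunits, 4 rose and 2 fell in HCT-116 cells, 2 rose and 2 fell in A549 cells and 1 fell in PC3 cells. None was called in T47D cells, where 2 were higher at an unadjusted p under 0.05 in edgeR. In HCT-116 cells 44.4% rose and 22.2% fell, beside 23.3% and 27.0% of all genes tested. In A549 cells 22.2% rose and 22.2% fell, beside 17.6% and 17.8%, and in PC3 cells 11.1% fell, beside 15.7%. SF3B3, a scaffold of SF3B, was at 242, 216 and 280.2 CPM in normoxia and 323, 356 and 382 CPM in hypoxia in A549 cells (0.52 ± 0.12) and 239, 154 and 181 CPM in normoxia and 407, 313 and 319.8 CPM in hypoxia in HCT-116 cells (0.85 ± 0.22). The states did not overlap in either line. PC3 (0.21 ± 0.11) and T47D cells (0.63 ± 0.23) gave no call, and the GC and length correction ended both calls. SF3A3 fell in A549 (-0.48 ± 0.10) and PC3 cells (-0.37 ± 0.09). SF3A2 rose in A549 (0.35 ± 0.12) and HCT-116 cells (0.96 ± 0.20), and SF3B2 (0.94 ± 0.22) and SF3A1 (1.202 ± 0.26) in HCT-116 cells. The A549 call of SF3A2 ended without any 1 of 4 libraries (log2 fold change from 0.30 to 0.47). Small subunits went the other way: SF3B14, now named SF3B6, fell in A549 (-0.41 ± 0.11) and HCT-116 cells (-1.26 ± 0.23), and with the block in PC3 cells (-0.39), and SF3B5 in HCT-116 cells (-0.60 ± 0.21). With the GC and length correction both HCT-116 calls ended. No subunit was then lower in HCT-116 cells even at an unadjusted p under 0.05 in edgeR. SF3B1, the subunit that is often mutated in blood cancers, had no call, with log2 fold changes from -0.20 to 0.04.

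The 13 PRPF factors act in U4/U6, in the tri-snRNP, at U1 or in activation of the spliceosome. Of these, 9 fell and 1 rose in A549 cells and 5 fell and 3 rose in HCT-116 cells. In PC3 cells 2 fell, and in T47D cells 1 fell. The shares that fell were 69.2%, 38.5%, 15.4% and 7.69% in the order of lines, beside 17.8%, 27.0%, 15.7% and 6.69% of all genes tested. The shares in PC3 and T47D cells were near those of all genes, as was the 23.1% that rose in HCT-116 cells (23.3%). PRPF39, a U1-associated protein (chr14:45553310-45585485 in GRCh37, plus strand), was downregulated in all 4. A549 cells had 26.3, 28.7 and 17.9 CPM in normoxia and 11.3, 11.6 and 10.1 CPM in hypoxia (-1.14 ± 0.17), HCT-116 cells 57.0, 81.2 and 47.8 CPM in normoxia and 19.0, 24.2 and 19.9 CPM in hypoxia (-1.56 ± 0.22) and PC3 cells 30.4, 24.1 and 32.9 CPM in normoxia and 15.9, 15.9 and 19.2 CPM in hypoxia (-0.77 ± 0.14). No overlap was seen in these 3 lines. In T47D cells the values were 69.9, 83.2 and 27.8 CPM in normoxia and 27.1, 28.0 and 19.7 CPM in hypoxia (-1.27 ± 0.33), where normoxia replicate 3 lay within the hypoxic range. That call ended without normoxia replicate 1 or 2 (adjusted p up to 0.169) and with the GC and length correction.

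PRPF8 (chr17:1553923-1588161 in GRCh37), the large protein at the catalytic center of the spliceosome, moved the opposite way. It was at 399, 363 and 590.2 CPM in normoxia and 809, 826 and 729 CPM in hypoxia in A549 cells (0.81 ± 0.16, adjusted p = 0.00314) and 376, 189.9 and 219.8 CPM in normoxia and 853, 629 and 718 CPM in hypoxia in HCT-116 cells (1.48 ± 0.27, adjusted p = 0.000712). All hypoxic libraries were above the normoxic ones in both. In PC3 (0.31 ± 0.15) and T47D cells (0.59 ± 0.24) the states overlapped and there was no call. PRPF6, which bridges the tri-snRNP, and PRPF19, a ubiquitin ligase of the activated spliceosome, also rose in HCT-116 cells (1.16 ± 0.21 and 0.63 ± 0.25). PRPF40B (-1.01 ± 0.19, A549), PRPF38B (-0.73 ± 0.14 in A549, -0.75 ± 0.20 in HCT-116) and the kinase gene PRPF4B (-0.60 ± 0.13 and -0.83 ± 0.19) fell. With replicate number as a block, PRPF40B and PRPF4B were downregulated in T47D cells too, at log2 fold changes of -0.74 and -0.71. The subunits of U2AF had no shared call: U2AF2, the large subunit, rose in HCT-116 cells (0.69 ± 0.21), a call that ended with the GC and length correction, and U2AF1, the small subunit that reads the AG at the intron end, had no call (-0.15, 0.25, -0.14 and 0.08). U2AF1L4, a lowly expressed relative, fell in A549 (-0.85 ± 0.18) and T47D cells (-1.40 ± 0.36).

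SR protein genes that passed the test fell, except SRSF9 and SRSF4. SRSF7 (chr2:38970741-38978636 in GRCh37), an SR protein with a zinc knuckle, was at 249.3, 271 and 241 CPM in normoxia and 104, 143 and 167 CPM in hypoxia in A549 cells (-0.88 ± 0.15) and 440.1, 591 and 361 CPM in normoxia and 239, 117 and 177 CPM in hypoxia in HCT-116 cells (-1.38 ± 0.28). PC3 cells had 204, 199 and 303 CPM in normoxia and 161, 164 and 163 CPM in hypoxia (-0.53 ± 0.15) and T47D cells 262, 215 and 197 CPM in normoxia and 108, 88.5 and 163 CPM in hypoxia (-0.90 ± 0.25). All hypoxic libraries lay below the normoxic ones of their line. The PC3 and T47D calls ended with the GC and length correction, and the PC3 call also without any 1 of the 3 hypoxic libraries (adjusted p up to 0.0769). The T47D call also ended without hypoxia replicate 1 or 2 or normoxia replicate 1 or 2 (up to 0.190).

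SRSF5, first found among insulin-induced genes of the liver, fell in A549 (-0.44 ± 0.11), HCT-116 (-1.19 ± 0.24) and PC3 cells (-0.92 ± 0.13). Its PC3 values were 153, 107 and 119 CPM in normoxia and 65.4, 62.6 and 72.6 CPM in hypoxia, and the calls held with the GC and length correction in these lines, but the A549 call ended without normoxia replicate 2 (adjusted p = 0.0663). SRSF10, a regulator that represses splicing when dephosphorylated after heat shock, fell in A549 (-0.95 ± 0.17), HCT-116 (-0.87 ± 0.18) and PC3 cells (-0.47 ± 0.15). The GC and length correction ended its HCT-116 and PC3 calls (-0.33 in both) and not its A549 call. SRSF11 fell in A549, HCT-116 and PC3 cells as well (-0.51 ± 0.12, -0.52 ± 0.19 and -0.57 ± 0.11). Its HCT-116 value turned to 0.04 with the GC and length correction, and that call ended without any 1 of 5 single libraries (adjusted p up to 0.264). SRSF2, a classical exon-binding SR protein, fell in A549 (-0.51 ± 0.12) and HCT-116 cells (-1.17 ± 0.29), SRSF6 in A549 (-0.44 ± 0.12) and PC3 cells (-0.49 ± 0.11), and SRSF3, a small SR protein, in HCT-116 cells, at 1010.2, 1511 and 997 CPM in normoxia and 596, 368 and 495 CPM in hypoxia (-1.27 ± 0.26). SRSF3 had no call in the other lines, and its interaction did not pass (adjusted p = 0.0539). With the block, SRSF11 and SRSF4 were downregulated in T47D cells as well (-0.59 and -0.58).

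SRSF1, the prototype of the family, had no call in any line (-0.19 ± 0.13, -0.22 ± 0.32, -0.06 ± 0.09 and -0.31 ± 0.21). In HCT-116 cells its hypoxic libraries were spread over 613, 208 and 415 CPM, around the normoxic 567, 412 and 463 CPM. The exceptions in direction were SRSF9 and SRSF4. SRSF9 was at 119, 115 and 156 CPM in normoxia and 218, 243 and 234 CPM in hypoxia in HCT-116 cells (0.83 ± 0.20) and 213, 205 and 190.3 CPM in normoxia and 252, 249.9 and 243 CPM in hypoxia in PC3 cells (0.29 ± 0.09), without overlap in either line. SRSF4 was at 96.5, 92.0 and 81.0 CPM in normoxia and 112, 119 and 113 CPM in hypoxia in PC3 cells (0.35 ± 0.09) and at 73.3, 72.6 and 56.8 CPM in normoxia and 50.2, 45.3 and 40.2 CPM in hypoxia in T47D cells (-0.58 ± 0.20, adjusted p = 0.0665), without overlap and in opposite directions. SRSF8 fell in PC3 cells (-0.34 ± 0.09) and was not called elsewhere. The PC3 calls of SRSF4, SRSF8, SRSF9 and SRSF10 ended when 1 of 3 or more single libraries was left out, with adjusted p values up to 0.0894, 0.0826, 0.109 and 0.112, and the sign did not change.

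Of 19 HNRNP genes, 12 rose in HCT-116 cells and 1 or 2 in each other line. HNRNPUL2 (chr11:62480102-62494929 in GRCh37), related to HNRNPU and linked to the response to DNA breaks, was the exception with a call in every line. In A549 cells it was at 121, 106 and 186 CPM in normoxia and 338, 295 and 227 CPM in hypoxia (1.06 ± 0.20, adjusted p = 0.00213), and in HCT-116 cells at 125, 75.8 and 56.7 CPM in normoxia and 282, 281 and 278 CPM in hypoxia (1.71 ± 0.26, adjusted p = 0.000269). PC3 cells had 278, 345 and 214 CPM in normoxia and 471, 437 and 429.7 CPM in hypoxia (0.67 ± 0.15, adjusted p = 0.0102), and T47D cells 185, 224 and 239 CPM in normoxia and 461, 447 and 360.3 CPM in hypoxia (0.97 ± 0.22, adjusted p = 0.0152). Every hypoxic library exceeded each normoxic library of its line. All 4 calls held with the GC and length correction. The T47D call ended without hypoxia replicate 1 or normoxia replicate 1 or 2 (log2 fold change from 0.87 to 1.18, adjusted p up to 0.127).

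HNRNPU, a nuclear scaffold protein, was at 609.7, 282 and 315 CPM in normoxia and 1224, 782 and 1033 CPM in hypoxia in HCT-116 cells (1.33 ± 0.30). Each hypoxic library was above all normoxic ones there, but in A549 (0.31 ± 0.18), PC3 (0.27 ± 0.16) and T47D cells (0.56 ± 0.24) no call was made. HNRNPD, which binds AU-rich elements, had 370.1, 236 and 281 CPM in normoxia and 724, 607 and 650.5 CPM in hypoxia in HCT-116 cells (1.16 ± 0.23). HNRNPM rose in HCT-116 (1.16 ± 0.27) and A549 cells (0.41 ± 0.15, with overlapping states, and no call without any 1 of 4 libraries at log2 fold changes from 0.29 to 0.60). HNRNPUL1 (1.03 ± 0.21), HNRNPA3 (0.71 ± 0.22), HNRNPA2B1 (0.70 ± 0.23), HNRNPA0 (0.81 ± 0.22), HNRNPH2 (0.55 ± 0.19), HNRNPH3 (0.64 ± 0.20), HNRNPK (0.58 ± 0.22) and HNRNPL (0.55 ± 0.22) rose in HCT-116 cells and had no call upward in the other lines. With the block HNRNPA0 also rose in T47D cells (0.61, adjusted p = 0.0430 in edgeR). The difference between lines passed for HNRNPUL1, HNRNPA3 and HNRNPH3 and not for HNRNPA2B1 (0.0835), HNRNPA0 (0.113), HNRNPH2 (0.123), HNRNPK (0.239) and HNRNPL (0.20, adjusted p of the interaction). HNRNPA3 and HNRNPA2B1 lost the call without hypoxia replicate 3 (adjusted p = 0.0577 and 0.0699), and HNRNPK and HNRNPL lost it when 1 of 5 single libraries was left out (adjusted p up to 0.110 and 0.132). HNRNPA1, a partner of these proteins in splice site choice, had no call in any line (0.12 ± 0.11, 0.42 ± 0.22, -0.30 ± 0.11 and 0.23 ± 0.25). Since reads without a unique position were removed and HNRNPA1 has many near-identical pseudogene copies, its level and that of HNRNPA1L2 are uncertain.

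HNRNPC (chr14:21677295-21737653 in GRCh37), which binds uridine tracts, was the gene of the group that fell in 3 lines. It was at 919, 927 and 796 CPM in normoxia and 674, 638 and 790.4 CPM in hypoxia in A549 cells (-0.33 ± 0.12), 1299, 1779.6 and 1576 CPM in normoxia and 978, 1022 and 936 CPM in hypoxia in HCT-116 cells (-0.66 ± 0.22) and 739.9, 669.8 and 859.7 CPM in normoxia and 592, 598 and 612 CPM in hypoxia in PC3 cells (-0.33 ± 0.11). The states did not overlap in these lines. T47D cells had 847, 479.7 and 699 CPM in normoxia and 591, 574 and 795 CPM in hypoxia (-0.05 ± 0.26), with full overlap. Adjusted p values were 0.0479, 0.0225 and 0.0378 for the first 3 lines, and each call ended with the GC and length correction and without any 1 of 4 or 5 single libraries (adjusted p up to 0.240, 0.168 and 0.123). HNRNPH1 fell in A549 cells (-0.36 ± 0.12), and HNRNPF (-0.29 ± 0.09) and HNRNPA1L2 (-0.52 ± 0.11) fell in PC3 cells.

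The hypoxia effect itself was compared between lines as the interaction of line and oxygen state in 1 fit of all 24 libraries. It passed for 22 of 78 grouped genes (28.2%), beside 18.3% of all genes tested: 17 of 47 snRNP, 1 of 12 SRSF and 4 of 19 HNRNP genes. The smallest adjusted p values were those of LSM1 (0.00605), SRSF4 (0.00842), LSM6 (0.00884), SF3B2 (0.012) and SF3A2 (0.0133). LSM1 and LSM6 had their lowest fold change in HCT-116 cells, and SF3B2 and SF3A2 their highest. SRSF4 rose in PC3 cells and had its lowest fold change in T47D cells. Fold changes of all genes tested were also spread most widely in HCT-116 cells, with quartiles of -0.77 and 0.57. The quartiles were -0.33 and 0.32 in A549, -0.31 and 0.28 in PC3 and -0.41 and 0.34 in T47D cells. With replicate 1 or replicate 2 of every group left out, 0 genes passed in edgeR (27 and 7 at an unadjusted p under 0.05), and with replicate 3 left out 25 passed. DESeq2 gave 32. SRSF7 (0.289), HNRNPUL2 (0.0724) and PRPF39 (0.467), all called in every line, did not pass, which does not show that their effects were equal.

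Normoxic levels were compared between lines without the hypoxic libraries. Over the 12 normoxic libraries, 40 of 78 grouped genes (51.3%) passed with more than a 2-fold range, beside 79.9% of all genes tested, and the median range was 1.05 on the log2 scale against 1.90 for all genes. HCT-116 cells had the highest level for 23 of these 40, PC3 cells for 9, A549 cells for 5 and T47D cells for 3. The same count over all genes is not given here, so this order cannot be read as particular to these genes. No GC and length correction was made for the normoxic comparison. CPM in this comparison was scaled over all 24 libraries. LSM6 had the widest range among the better expressed genes (7.23-fold), at 86.8 ± 30.2 CPM in HCT-116, 31.3 ± 5.47 in PC3, 14.1 ± 1.60 in T47D and 12.01 ± 1.06 in A549 cells (SD, n = 3), of which the last 2 differed by about their spread. SNRPD2 was at 1088 ± 497 CPM in HCT-116 cells, against 389.5 ± 58.5 in A549, 266 ± 84.5 in T47D and 201 ± 77.9 in PC3 cells, the last 2 within their spread. HNRNPUL1 was highest in A549 cells (583 ± 101 CPM), followed by PC3 (298 ± 49.1), T47D (251 ± 59.4) and HCT-116 cells (155 ± 33.1), with PC3 and T47D cells within their spread. SRSF8 was at 64.2 ± 0.607 CPM in PC3, 53.3 ± 0.764 in HCT-116, 32.0 ± 1.43 in A549 and 26.6 ± 3.22 in T47D cells. SRSF12 had 90 to 125 counts in A549 libraries and was near 0 elsewhere. By contrast SRSF1, from 385 ± 46.5 CPM in T47D to 515 ± 42.6 in PC3 cells, HNRNPA2B1, HNRNPK and SF3B3 had ranges of 1.34, 1.36, 1.49 and 1.39-fold and did not pass.

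**Figure D4:**
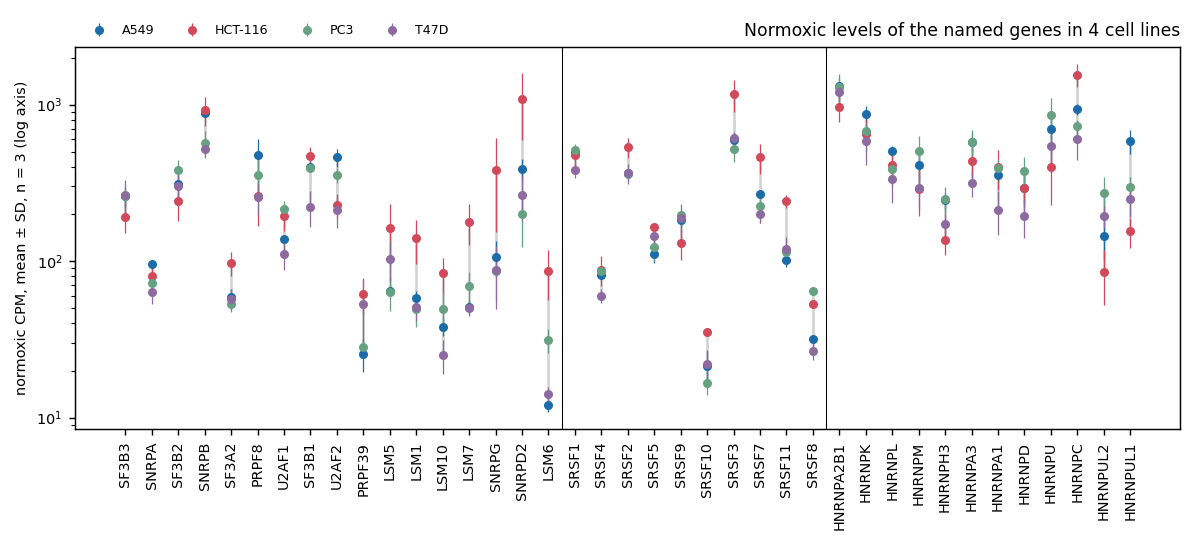
Mean normoxic CPM ± SD of 3 libraries (log axis, scaled over all 24 libraries) in the 4 cell lines for the named genes of the snRNP, SRSF and HNRNP groups (left to right). HCT-116 cells stand highest for LSM and Sm genes such as LSM6, SNRPG and SNRPD2, and the HNRNP genes lie closer together.

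Per kilobase of the longest transcript, the highest mean normoxic levels over the 4 lines were those of SNRPB (672 CPM per kb) and SNRPD2 (604). The value of SNRPD2 was carried by HCT-116 cells (1352 CPM per kb), and in PC3 cells (249.5) it was below HNRNPAB (312) and HNRNPA2B1 (298). Next in the mean came HNRNPA2B1 (275), HNRNPK (238) and HNRNPC (212). The highest SR genes were SRSF3 (171), SRSF9 (151) and SRSF2 (141), and SRSF10 was at 3.12.

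Other genes of the same machinery, from lists by role, were read beside these. Of 57 further spliceosome proteins, 24 fell and 1 rose in A549 and 16 fell and 13 rose in HCT-116 cells. In PC3 cells 18 fell and 3 rose, and in T47D cells 4 fell and 0 rose (56 tested in the last 3 lines). Of all genes tested, 17.8%, 27.0%, 15.7% and 6.69% fell in the same order, and 17.6%, 23.3%, 16.6% and 6.55% rose. The HCT-116 counts and the T47D count downward were near these shares. PPIL1, a peptidyl-prolyl isomerase of the spliceosome, fell in all 4 lines (-0.62, -2.26, -0.83 and -1.11 on the log2 scale), as did PHF5A, a small SF3B subunit (-0.81, -1.86, -0.62 and -0.93). The helicase gene SNRNP200, whose protein works beside PRPF8, rose in A549 (0.64) and HCT-116 cells (1.42). Among the genes for assembly of Sm rings, 8 of 16, 7 of 17, 5 of 16 and 1 of 16 fell, and 1 rose, in HCT-116 cells. These counts, too, stand beside the shares of all genes given above. GEMIN2, which holds the Sm proteins during assembly, fell in all 4 (-1.18, -2.64, -0.91 and -1.38).

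The counts that follow stand beside the same shares of all genes. Of 12 exon junction complex and related genes, 3 fell in A549, 3 fell and 4 rose in HCT-116, 2 fell and 1 rose in PC3 and 1 fell in T47D cells, the last being MAGOHB (-1.18). Other splicing regulators had 6 up and 8 down of 37 in A549, 16 up and 6 down of 40 in HCT-116, 2 up and 6 down of 39 in PC3 and 2 up and 3 down of 40 in T47D cells. MBNL2 rose (0.44, 0.93, 0.78 and 0.66) and TIA1 fell (-0.48, -1.999, -0.70 and -1.28) in all 4. The CLK and SRPK kinases phosphorylate SR proteins, and of 6 tested in A549, HCT-116 and PC3 cells and 7 in T47D cells, 3, 3, 2 and 2 fell and 0, 1, 1 and 1 rose. CLK1 fell in 3 lines (-0.38, -0.97 and -0.65), and CLK3 rose in HCT-116 (1.52), PC3 (0.69) and T47D cells (0.80).

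Of the genes kept apart, LSMD1 fell in HCT-116 cells (-1.04 ± 0.24) and was not called elsewhere, from -0.44 to -0.22. The pseudogene HNRNPA1P33 was counted in A549 and PC3 cells, without a call (-0.22 ± 0.14 and -0.04 ± 0.14).

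**Figure D5:**
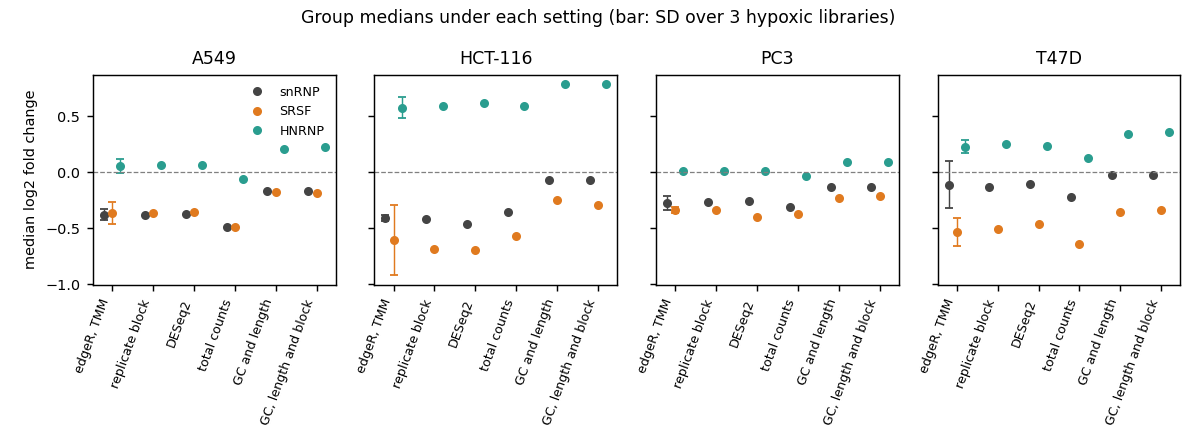
Median log2 fold change, hypoxia against normoxia (vertical axis), of the snRNP, SRSF and HNRNP genes under 6 ways of fitting (horizontal axis) in each cell line, with the SD over 3 hypoxic libraries as a bar on the first. The order with HNRNP highest holds in each panel, while the snRNP median moves toward 0 with the GC and length correction.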

How the data were processed

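Polyadenylated RNA of A549, HCT-116, PC3 and T47D cells in normoxia and hypoxia was sequenced in 24 directional libraries, 3 per group. The authors made the deposited counts, raw integers for each gene symbol, in 4 steps: reads were trimmed (Trim Galore 0.3.3), aligned to GRCh37 (HISAT2 2.05), cleared of fragments that mapped to more than one place (Picard 2.0.1) and counted on UCSC genes (HTSeq 0.5.4p3) in intersection-strict mode, which leaves out reads shared by overlapping genes. The strand setting of the counting is not given in the sources used here. Tool versions follow the submitters' processing notes, and the study called genes with DESeq2, whose version is not given in the sources used here.

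The deposited counts were tested with edgeR 4.0.16 in R 4.3.3 (filterByExpr, TMM, glmQLFit and glmQLFTest), in a fit for each line, with Benjamini-Hochberg adjustment over all genes tested, and every adjusted p in the text is from edgeR. A call required a fold change above 1.2 at an adjusted p below 0.05. Interaction and normoxic level were tested in fits of the 24 libraries and of the 12 normoxic libraries, the latter with a range over 2-fold. Log2 levels used a prior count of 2. The scripts were tested on simulated counts. Gene positions, lengths (longest transcript) and GC content came from GENCODE genes of GRCh37, which matched 93.4% of symbols, and promoters from RefSeq in GRCh38.p14.

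The members, the lists by role and the comparisons were chosen with earlier results of these data known. Genes were named by rule: in each group the 4 with the largest mean fold change upward and downward among those called in that direction in 2 or more lines, the 4 with the smallest interaction p, the 3 highest per length in normoxia and the 3 with the widest normoxic range, then every gene called in opposite directions in 2 lines, and a set of genes taken for their role whatever their values. Genes outside this rule that are given with values were chosen after their values were seen. The labels use the same replicate numbers in both oxygen states. How far a library lay from its group mean, gene by gene, was correlated between libraries of one number. These correlations were 0.12 to 0.16 in PC3 and 0.22 to 0.33 in T47D cells, over 0.1 in every pair. They were 0.05 to 0.25 in A549 and 0.09 to 0.34 in HCT-116 cells. The number was therefore taken to pair the libraries of PC3 and T47D cells only. This cut at 0.1 does not show that the A549 and HCT-116 libraries were unpaired. In all lines, PC3 and T47D included, calls, adjusted p values and the interaction test come from fits without a replicate block unless the block is named. Alternatives were DESeq2 1.42.0, other scalings and filters, a replicate block, a spline correction for GC content and length, 1 fit of all libraries and leaving out each library. The sources used here mention no molecular identifiers, and depth bears on counting error only. One of the marker genes examined is not reported here.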

Additional observations from a re-analysis of the deposited data

Results flagged for a closer look

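The change in hypoxia differed between cell lines for 22 of the 78 genes tested (edgeR interaction test over 24 libraries), beside 18.3% of all genes tested. Without replicate 1 or replicate 2 of every group, 0 passed in edgeR (27 and 7 at an unadjusted p under 0.05), and 25 passed without replicate 3. With all libraries, 32 of 81 genes passed in DESeq2. The 15 of the 22 that the naming rule takes are given here with the adjusted p of that interaction and log2 fold changes in the order A549, HCT-116, PC3 and T47D.

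Among the LSM and Sm genes, the most negative fold change was in HCT-116 cells for LSM1 (adjusted p = 0.00605), LSM6 (0.00884), LSM10 (0.0147), SNRPG (0.0167) and LSM5 (0.0277). Fold changes of all genes tested were also spread most widely in that line, with quartiles of -0.77 and 0.57, against -0.33 and 0.32 in A549 cells. For LSM1, which binds the end of mRNAs in decay, the fold changes were -0.67, -2.02, -0.46 and -0.93. For SNRPG, an Sm ring protein, they were -0.63, -2.72, -0.80 and -1.42. SNRPA, the U1 protein A (0.0291), had 0.62 in HCT-116 cells and between -0.06 and 0.17 in the other lines.

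The U2 subunits SF3B2 (0.0120) and SF3A2 (0.0133), the U5 protein PRPF8 (0.0438) and U2AF2 (0.0430) had their highest fold change in HCT-116 cells. For SF3B2 the values were -0.10, 0.94, 0.03 and 0.30, and for PRPF8 0.81, 1.48, 0.31 and 0.59. The same held for HNRNPD (0.0223), HNRNPA3 (0.0316), HNRNPUL1 (0.0399) and HNRNPH3 (0.0424), with 0.25, 1.16, 0.14 and 0.57 for HNRNPD.

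SRSF4 was the SRSF gene that passed (0.00842). Its fold changes were -0.12, 0.35, 0.35 and -0.58, with a call in PC3 cells. With the replicate block it was called down in T47D cells as well (-0.58, adjusted p = 0.0392 in edgeR).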

How the results depend on the processing

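Of 2379 alternative values of the 156 named fold changes, 2095 kept the call and its direction or had no call in either fit. Values without a call in either fit were counted there whatever their sign. A further 179 lost the call and 103 gained one. Among values with a call in either fit, 2 reversed. These were SRSF11 in HCT-116 cells, at 0.036 with GC and length correction and at 0.031 with the replicate block added. Of 73 called fold changes, 39 stayed called in each alternative that used all libraries. Leaving out 1 library ended 6 of 18 calls in A549, 8 of 33 in HCT-116, 8 of 14 in PC3 and 8 of 8 in T47D cells. GC and length correction ended 8, 7, 6 and 5 of these. The cause of the changes given here was not tested.

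With GC and length correction, 20 genes were downregulated in A549, 18 in HCT-116 and 13 in PC3 cells, and 4 were up and 4 down in T47D cells. The snRNP medians were then -0.17, -0.071 and -0.13 in A549, HCT-116 and PC3 cells, and in the order of the 4 lines the SRSF medians were -0.18, -0.24, -0.22 and -0.35 and the HNRNP medians 0.21, 0.79, 0.092 and 0.34. With this correction and the replicate block, 19 were down in HCT-116, 6 up and 14 down in PC3 and 9 up in T47D cells. The snRNP medians were -0.16, -0.066 and -0.13 in the first 3 lines, the SRSF medians -0.18, -0.21 and -0.34 in A549, PC3 and T47D cells, and the HNRNP medians 0.22, 0.79, 0.10 and 0.36. In 1 fit of all 24 libraries, 3 were up and 17 down in A549, 0 up and 6 down in PC3 (edgeR, 2 and 15 at an unadjusted p under 0.05) and 12 up and 17 down in T47D cells. There the snRNP median was -0.28 in HCT-116 cells, the SRSF median -0.39 in T47D cells and the HNRNP medians 0.69, 0.059 and 0.31 in HCT-116, PC3 and T47D cells. Scaled to total counts, 3 were up in A549 and 16 down in T47D cells, the snRNP medians were -0.49 and -0.36 in A549 and HCT-116 cells, the SRSF medians -0.48 and -0.37 in A549 and PC3 cells, and the HNRNP medians -0.056, -0.031 and 0.13 in A549, PC3 and T47D cells. DESeq2 gave 2 up and 15 down in T47D cells, an snRNP median of -0.46 in HCT-116 cells, and SRSF and HNRNP medians of -0.40 and 0.011 in PC3 cells. With RLE size factors the HCT-116 snRNP median was -0.37 and the PC3 HNRNP median 0.011. A mean count of at least 50 gave an snRNP median of -0.36 in HCT-116 cells, and no filter gave SRSF and HNRNP medians of -0.37 and 0.012 in PC3 cells.

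With the replicate block alone, 2 genes were up in T47D cells and 12 down, 6 and 32 in A549, 24 and 30 in HCT-116 and 3 and 25 in PC3 cells, and the interaction passed for 28. In PC3 cells the block added LSM7 and SF3B14 to the downregulated genes and lost SNRPA1. In T47D cells it added HNRNPA0, PRPF40B, PRPF4B, SRSF11 and SRSF4. In A549 and HCT-116 cells the number was not taken to pair the libraries, since the lowest correlation of same-numbered libraries was 0.05 and 0.09. The highest was 0.25 and 0.34. There it added HNRNPA0, SF3B4 and SRSF6 and lost HNRNPC and SNRPD2.

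With libraries left out, upregulated genes numbered 3 to 11 in A549, 17 to 25 in HCT-116, 1 to 6 in PC3 and 0 to 18 in T47D cells, and downregulated genes 24 to 33, 22 to 29, 12 to 30 and 0 to 30. The highest T47D counts were without replicate 3 of both states, chosen after the data were seen. The snRNP medians ranged from -0.42 to -0.32, -0.50 to -0.24, -0.28 to -0.20 and -0.37 to -0.075 in the same order, the SRSF medians from -0.40 to -0.26, -0.85 to -0.48, -0.38 to -0.31 and -0.69 to -0.44, and the HNRNP medians from -0.0091 to 0.17, 0.50 to 0.79, -0.090 to 0.063 and 0.11 to 0.46. The interaction passed for 0 to 25 genes and the normoxic difference for 31 to 51.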
